A study of Mus musculus with 2 samples.

Results

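The homeobox genes Emx1, Emx2, Otx1, Otx2, Lhx2, Lhx9, Gbx2, En2 and Pax6 are transcription factors that set regional identity in the developing brain. These 9 of 43346 annotated genes were taken by symbol from the gene and transcript quantifications of adult mouse frontal cortex, and the rule that selects them uses no measured value. All 9 had a row in both libraries. The study has 1 group, C57BL/6J mice at 8 weeks of age, whose frontal cortex is labelled as tissue pooled from male and female littermates and also as frontal lobe. It comprises 2 biological replicates of stranded, paired-end sequencing of polyadenylated RNA depleted of ribosomal RNA, with spike-in RNAs added. Both replicates carry the same donor label, and the labels name no allele, transgene or treatment, so there is no contrast between conditions.

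In the embryo, a gradient of such factors divides the neural tube. Otx2 marks the forebrain and midbrain and Gbx2 the anterior hindbrain, and each limits the other where the territories meet, at the isthmus, around which the Engrailed genes En1 and En2 are expressed. Within the forebrain, Lhx2, Emx1, Emx2 and Pax6 act in the dorsal telencephalon, which forms the cerebral cortex, and several of them stay active in mature neurons or glia. Lhx9 is better known from the thalamus and other non-cortical sites.

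The libraries held 106084891 (replicate 1) and 90476207 (replicate 2) expected counts, which are estimated fragments. Levels are given in TPM, the share of a gene in all transcripts, which corrects for length and so can be compared between genes. The libraries stood apart from each other in sex-linked transcripts despite their shared pooled label: Eif2s3y, on the Y chromosome, had 7150 and 3 counts and Xist, made from the inactive X, had 107 and 77696. Every result is therefore given for each library. TPM of genes at 1 TPM or more in both libraries was lower in replicate 2 by a median log2 ratio of -0.13. Ratios between replicates were instead taken from scaled counts, with a median of -0.00 over the same genes.

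All members share the homeobox, the stretch that codes for the DNA-binding homeodomain. The codons of its recognition helix are shown because they group the genes by DNA-contact class and differ within each pair of paralogs. Codons 42 to 58 of the homeobox follow, on the coding strand, counted from its first codon, with codon 50 in capitals.

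Emx1: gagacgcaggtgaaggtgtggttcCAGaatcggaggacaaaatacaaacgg
Emx2: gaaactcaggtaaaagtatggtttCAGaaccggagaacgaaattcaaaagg
Lhx2: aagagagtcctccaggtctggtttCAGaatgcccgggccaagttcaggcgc
Lhx9: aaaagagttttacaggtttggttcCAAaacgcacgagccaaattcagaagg
Otx1: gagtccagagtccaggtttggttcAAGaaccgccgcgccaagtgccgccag
Otx2: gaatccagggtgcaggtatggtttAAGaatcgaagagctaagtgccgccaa
Gbx2: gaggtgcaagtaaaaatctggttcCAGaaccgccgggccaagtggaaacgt
En2: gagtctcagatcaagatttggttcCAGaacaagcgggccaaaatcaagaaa
Pax6: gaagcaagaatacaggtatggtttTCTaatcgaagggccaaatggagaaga

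Codon 50 is CAG or CAA in Emx1, Emx2, Lhx2, Lhx9, Gbx2 and En2, which both stand for glutamine. It is AAG, for lysine, in Otx1 and Otx2 and TCT, for serine, in Pax6. Residue 50 is known for its part in DNA sequence preference. Over the 180 bases of the homeobox, Emx1 and Emx2 were 78.9% identical, Otx1 and Otx2 80.0%, and Lhx2 and Lhx9 79.4%. The other 33 pairs had a median of 51.1%, from 44.4% upwards, and none of them reached the identity of a paralog pair. The longest identical stretch between the transcripts of a paralog pair was 14 bases for Emx1 and Emx2, 18 for Otx1 and Otx2 and 17 for Lhx2 and Lhx9. All 9 members had whole expected counts in both libraries, as counts have where no fragment is split with another gene.

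The dorsal telencephalic factors were the most abundant of the 9. Lhx2, the LIM-homeodomain factor that selects cortical over neighbouring fates (chromosome 2, 38339281 to 38369733, mm10, ENSMUSG00000000247.7), was present at 31.2 TPM (replicate 1) and 31.5 TPM (replicate 2), from 5630 and 5131 counts (31.4 ± 0.212 TPM, SD, n = 2). Pax6, the paired-box and homeobox factor of cortical progenitors (chromosome 2, 105668900 to 105697364, ENSMUSG00000027168.17), stood at 24.6 and 19.8 TPM from 3505 and 2579 counts. Its level was 22.2 ± 3.36 TPM, and Pax6 was below Lhx2 in each library.

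Emx1, a marker of the cortical excitatory lineage (chromosome 6, 85187438 to 85204462, ENSMUSG00000033726.8), was at 13.1 and 13.2 TPM (1408 and 1268 counts). Its paralog Emx2, which patterns the cortical areas (chromosome 19, 59458372 to 59465357, ENSMUSG00000043969.4), was at 6.25 and 4.71 TPM (1058 and 941 counts). Emx1 exceeded Emx2 by a mean log2 ratio of 1.28 ± 0.30 (SD, n = 2), which is 2.10-fold in replicate 1 and 2.81-fold in replicate 2, and the deposited intervals were apart in both libraries. The antisense RNA Emx2os, transcribed from the strand opposite Emx2, had 1.22 and 1.41 TPM, 5.12-fold and 3.34-fold lower than Emx2. Strand-specific counting was not stated in the sources used here, and the 2 genes overlap at their 5′ ends, so their counts there are uncertain.

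Of the Orthodenticle pair, Otx1, known from deep-layer cortical neurons (chromosome 11, 21994764 to 22002897, ENSMUSG00000005917.11), was the lowest of the genes that reached 1 TPM. It stood at 1.81 and 1.84 TPM from 425 and 371 counts. Otx2, the early forebrain and midbrain determinant (chromosome 14, 48657677 to 48673819, ENSMUSG00000021848.11), was at 0.27 and 0.19 TPM, from 32 and 18 counts. Otx1 was above Otx2 by 6.70-fold and 9.68-fold (mean log2 ratio 3.01 ± 0.38, n = 2), with intervals apart in both libraries. The deposited Otx2 values lay below their own deposited bounds, 0.283 to 0.652 TPM in replicate 1 and 0.199 to 0.567 TPM in replicate 2, and the deposited posterior mean TPM gave a mean log2 ratio of 2.17. In adult brain Otx2 is known from the choroid plexus, and the 5 choroid plexus markers measured summed to 2.54 and 2.55 TPM, with none at 0 and none at 1 TPM in both libraries. Their part in the Otx2 level was not tested.

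Lhx9 (chromosome 1, 138825186 to 138848577, ENSMUSG00000019230.10), the LIM-homeodomain paralog of Lhx2, was at 0.24 and 0.13 TPM from 72 and 36 counts. The ratio of Lhx2 to Lhx9 was the widest of the 3 paralog pairs, 130.2-fold in replicate 1 and 242.6-fold in replicate 2 (mean log2 ratio 7.47 ± 0.64, n = 2). Replicate 2 had the lower Lhx9 count, and the intervals of Lhx9 itself overlapped between the libraries.

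The factors of the isthmus and hindbrain were near the lower end of detection. En2 (chromosome 5, 28165694 to 28172166, ENSMUSG00000039095.8), which acts in midbrain and cerebellar development, was at 0.15 and 0.14 TPM from 42 and 35 counts. Its paralog En1 had 1 count in replicate 1 and 0 in replicate 2. With En1 set to a floor of 3 counts per library, En2 per effective length was 10.2-fold higher in replicate 1 and 8.45-fold higher in replicate 2. The floor is a setting, so these ratios are not lower bounds that allow for counting error.

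Gbx2, the anterior hindbrain determinant (chromosome 1, 89927956 to 89931179, ENSMUSG00000034486.8), had 2 and 5 counts, or 0.02 and 0.03 TPM. Gbx1 had 5 and 4 counts. No ratio was taken between them at this depth.

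**Figure D1:**
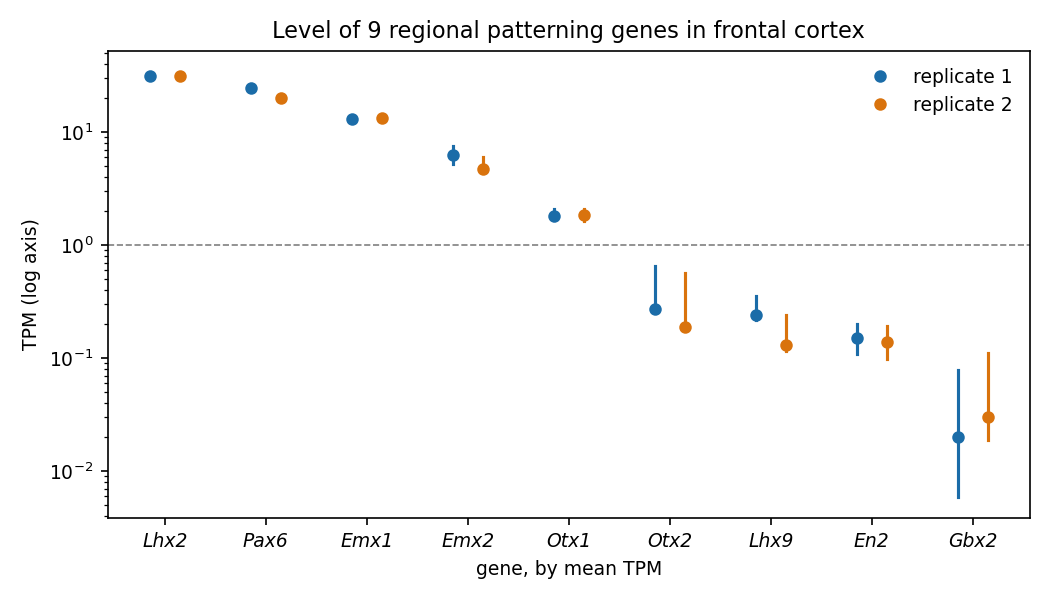
Deposited TPM (log axis) of the 9 genes in each library, ordered by mean, with vertical lines for the deposited interval bounds and a dashed line at 1 TPM. Lhx2, Pax6, Emx1, Emx2 and Otx1 lie above 1 TPM in both libraries and Otx2, Lhx9, En2 and Gbx2 below it; the Otx2 points lie under their own bounds.

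The plot of levels by library shows the split: 5 of the 9 genes were at 1 TPM or more in both libraries and 4 were under it in both. Among nuclear protein-coding genes, 60.7% of 21461 reached that level, with a median of 4.09 TPM, so the share among the 9 was near the background. Lhx2, Pax6, Emx1 and Emx2 were above that median and Otx1 was below it. Lhx2 was higher than 83.6% of nuclear protein-coding genes, Pax6 than 77.8%, Emx1 than 68.2%, Emx2 than 53.6% and Otx1 than 42.6%. Gbx2, at the other end, was higher than 20.7%.

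In the order of mean level, Lhx2, Pax6, Emx1, Emx2, Otx1, Otx2, Lhx9, En2 and Gbx2, 5 of the 8 neighbouring pairs had the same direction and intervals apart in each library. These were the 5 steps from Lhx2 down to Otx2. The step from Lhx2 to Pax6 was a log2 ratio of 0.35 in replicate 1 and 0.67 in replicate 2, and the step from Pax6 to Emx1 was 0.90 and 0.58. Emx2 exceeded Otx1 by 1.79 and 1.36. Below that point the order was not resolved: Lhx9 was above En2 by 0.68 in replicate 1 and below it in replicate 2 (-0.11). Otx2 and Lhx9, and En2 and Gbx2, kept their direction but had overlapping intervals in at least 1 library. In bulk tissue, fewer cells with a transcript and less RNA per cell cannot be told apart at any of these levels.

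Set beside every gene whose coding sequence holds a homeobox pattern, the members spread over the range. The pattern, a set of conserved residues in the recognition helix and the first helix, was found in 200 genes and misses some, such as the Meis genes, while it takes in Atp23 and Duox2, which are not homeobox genes. It was chosen after values had been seen. Of the 200 genes, 41 (20.5%) were at 1 TPM or more in both libraries, 17 at 10 TPM or more, and 45 had no count in either. The ventral forebrain gene Dlx1 led at 93.2 and 97.8 TPM. Lhx2 ranked 7, Pax6 9, Emx1 15, Emx2 21 and Otx1 35. Otx2 ranked 59, Lhx9 63 and En2 65, and Gbx2 ranked 107 among genes tied at the same TPM.

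**Figure D2:**
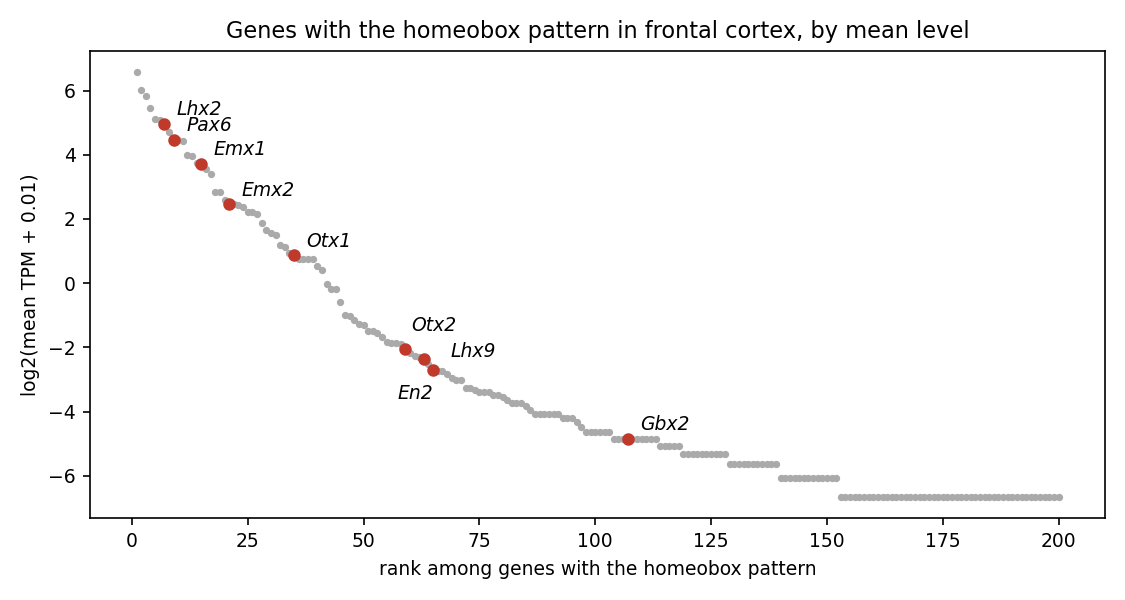
Log2 of mean TPM plus 0.01 against rank for the 200 genes with the homeobox pattern (grey points), with the 9 genes in red. Lhx2 ranks 7 and Gbx2 107, and the 45 genes with no count lie among those on the flat line at the lower right.

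Levels of other regional factors were set beside the 9 genes. The background for each list is the 60.7% of nuclear protein-coding genes at 1 TPM or more in both libraries, with their median of 4.09 TPM. Of 32 further telencephalic and forebrain factors, 20 (62.5%) reached that level, a share near the background, with a median of 7.53 TPM. The leading ones were Meis2 (193.1 and 223.2 TPM), Dlx1 and Zic1 (58.8 and 70.6 TPM), and Vax2 was at 0 in both libraries.

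Of 18 diencephalic factors, 3 (16.7%) were detected in this sense, with a median of 0.0525 TPM: Nkx2-2, Tcf7l2 and Barhl2. Lhx9 and Otx2 lay above that median and below those 3 genes. Of 18 midbrain and isthmus factors, 3 (16.7%) were detected, Nr4a2, Sall3 and Gata2, with a median of 0.0325 TPM. Nr4a2, also a gene of cortical neurons, was at 5.47 and 10.4 TPM with overlapping intervals. Of 25 hindbrain and spinal cord factors, 1 (4.0%) was detected, and 24 were under 0.1 TPM in both libraries. En2 was above the medians of the midbrain and isthmus list and of the hindbrain list, and Gbx2 was above the latter of these medians but not the former.

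**Figure D3:**
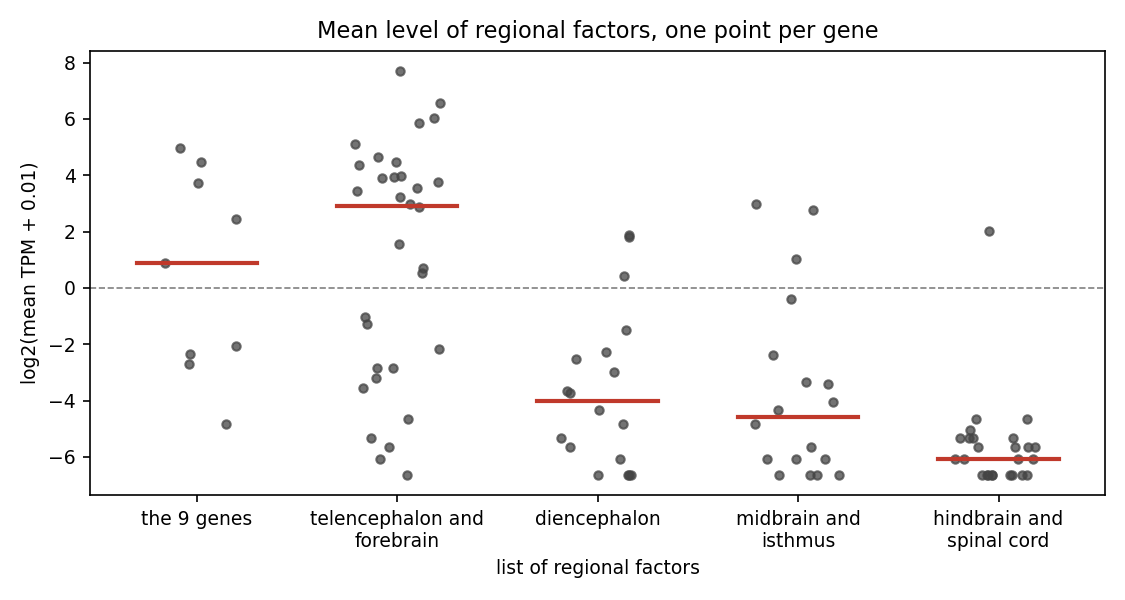
Log2 of mean TPM plus 0.01 for the 9 genes and for lists of factors of 4 brain territories, 1 point per gene, with red bars for medians and a dashed line at 1 TPM. The telencephalic list has 20 of 32 genes above the line and the hindbrain and spinal cord list 1 of 25. Among nuclear protein-coding genes the share is 60.7%.

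In the plot of regional lists, Lhx2, Pax6 and Emx1 lie above the telencephalic median of 7.53 TPM and the other 6 genes below it. Otx2, Lhx9 and En2 lie above the medians of the other 3 lists. Markers of the tissue itself were present: the 4 cortical excitatory markers summed to 500.8 TPM in replicate 1 and 454.5 TPM in replicate 2, and each was detected. Astrocytes, in which Lhx2, Emx2 and Pax6 are known to be active, gave 464.5 and 394.7 TPM over 5 of 5 markers. All 5 olfactory bulb markers were detected, at 302.7 and 300.9 TPM in sum, led by Doc2g (149.1 and 160.7 TPM) and the dopamine synthesis enzyme Th (68.9 and 66.6 TPM). Pax6, Meis2 and the Dlx genes are known from olfactory bulb interneurons, and the part of bulb RNA in their levels was not tested.

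Other territories gave smaller sums. The 5 thalamus markers gave 27.7 and 25.9 TPM, each detected, and whether this RNA came from thalamus was not tested. The 5 cerebellum markers summed to 73.2 and 88.9 TPM, of which Zic1 gave 58.8 and 70.6 TPM. The 2 that were detected, Zic1 and Cbln1, are not restricted to that region, and Gabra6, of cerebellar granule cells, had 2 and 6 counts. The 5 midbrain markers summed to 3.74 and 3.20 TPM with 2 detected, the 4 meningeal markers to 24.7 and 20.1 TPM with all detected, and the 2 proliferation markers to 1.34 and 1.83 TPM with 1 detected. Their part in the levels of Lhx9, En2 and Otx2 was not tested.

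Partners of these factors were abundant. LIM-homeodomain proteins such as Lhx2 act in complexes with Ldb proteins, and Lmo proteins compete for the same contact. All 10 LIM partners were detected, with a median of 46.9 TPM. Ldb1 was at 90.0 and 84.6 TPM, above Lhx2, and Lmo4 at 161.1 and 140.2 TPM. All 11 matched co-regulators of Pax and homeodomain factors were detected, with a median of 25.8 TPM, led by Meis2 and Tle2 (70.5 and 59.1 TPM).

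Between the replicates, 0 of the 8 members with 10 or more counts passed a log2 ratio of 0.5 with deposited intervals apart, where 4.98% of 20312 genes did. Those passing were 1.99% higher and 2.98% lower in replicate 2. Among the 5 members at 1 TPM or more the count was also 0, where 2.96% of such genes passed. The deposited TPM intervals, unlike the ratios, were not scaled. The median log2 TPM ratio of -0.13, replicate 2 over replicate 1, thus remains in them. By intervals alone, 1 member was apart, Pax6, against 49% of the 14210 genes at 1 TPM or more. Its log2 ratio of replicate 2 over replicate 1 was -0.16 (95% counting interval -0.24 to -0.09). Lhx2 was at 0.15 (0.09 to 0.20), Emx1 at 0.13 (0.02 to 0.24), Emx2 at 0.11 (-0.02 to 0.24) and Otx1 at 0.08 (-0.12 to 0.29). These 5 ratios were all small beside the threshold of 0.5.

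The low members had wide intervals. Without a prior count, Lhx9 was at -0.72 (-1.34 to -0.12), Otx2 at -0.55 (-1.47 to 0.33) and En2 at 0.02 (-0.67 to 0.70). Gbx2, with 2 and 5 counts, was not tested. The median over the 9 members was 0.08 beside -0.00 over all genes tested, and their lowest and highest ratios were -0.69 (Lhx9) and 0.98 (Gbx2). With 1 library on each side these ratios have no test, and the intervals cover counting error only. Among the further lists, Lmo3 (75.2 and 48.6 TPM, log2 ratio -0.56) was the LIM partner that passed the rule. By the same rule, Dlx5 (log2 ratio 0.502) and Fezf1 (8 and 23 counts) of the telencephalic list were higher in replicate 2. Gsx2 of that list (34 and 11 counts) was lower. Dlx5 was only just past the threshold of 0.5, and Fezf1 and Gsx2 rest on few counts. In other lists, Irx3 (11 and 31 counts) was higher, and Kl (187 and 99 counts) and Ogn (1010 and 465 counts) were lower. Over all genes tested, 4.98% passed.

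**Figure D4:**
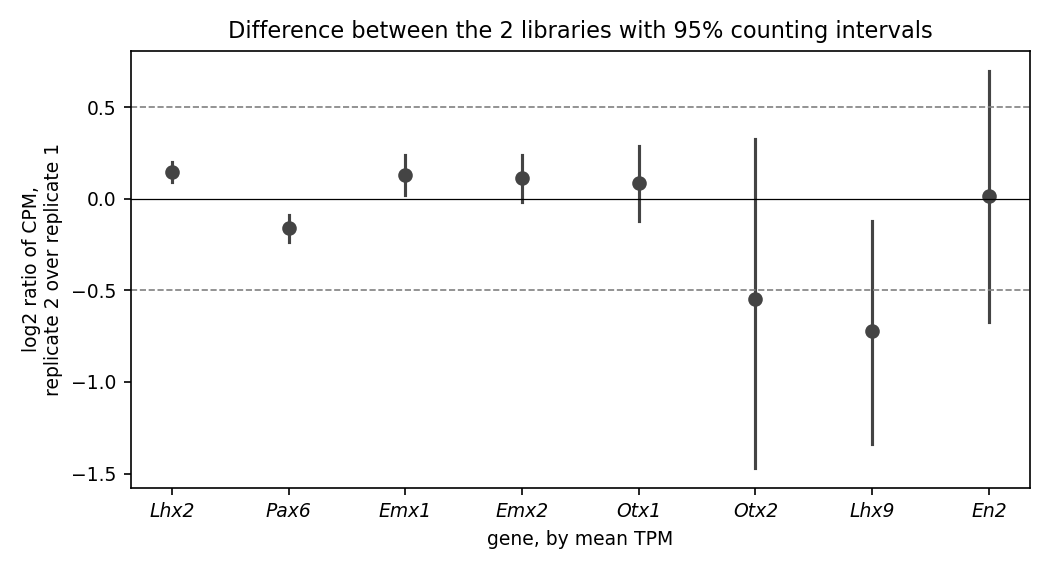
Log2 ratio of CPM, replicate 2 over replicate 1, without a prior count, for the 8 members with 10 or more counts, with 95% counting intervals as vertical lines. Dashed lines mark -0.5 and 0.5; Pax6 (-0.16) and Lhx2 (0.15) have the narrowest intervals and Otx2 the widest.

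Emx2 showed how the scale of a value matters. Its TPM was lower in replicate 2 (6.25 and 4.71), while its scaled count ratio was 0.11. The leading coding transcript, Emx2-201, was at 4.32 and 4.58 TPM, or 69.1% and 97.2% of the gene. The short processed transcript Emx2-203 was listed at 1.34 TPM in replicate 1, from 23.8 estimated counts, and at 0 in replicate 2. Because it is 422 bases long, few counts carry a large share of TPM.

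Each of the 5 members at 1 TPM or more had the same leading transcript in both libraries, though the lead in Pax6 was not resolved in replicate 2. Emx1-201 took 80.7% and 77.9% of Emx1, the rest being the retained-intron transcript Emx1-202. Otx1-201 took 89.4% and 86.6% of Otx1, and the retained-intron transcript Otx1-203 took 10.6% and 8.70%. Of the 14 transcripts of these 5 genes at a mean of 1 TPM or more, 3 had intervals apart between the libraries, 2 higher and 1 lower in replicate 2. Among all such transcripts of genes with several, 30.5% did.

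Lhx2 was read from alternative first exons. Lhx2-201 was at 21.96 and 20.69 TPM (70.3% and 65.6% of the gene), with overlapping intervals. Lhx2-203 was at 5.41 and 8.67 TPM (17.3% and 27.5%), and its intervals, 4.16 to 6.34 and 7.26 to 9.70 TPM, were apart. Replicate 2 thus had the higher level of the transcript that starts further upstream, at 38339281 against 38350759 for Lhx2-201. In the annotation, Lhx2-201 codes for 406 residues from its own first coding exon (chr2:38351774-38351893, plus strand, mm10), shown in capitals with the start of the shared second exon in lower case because Lhx2-203 lacks this coding stretch.

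Lhx2-201: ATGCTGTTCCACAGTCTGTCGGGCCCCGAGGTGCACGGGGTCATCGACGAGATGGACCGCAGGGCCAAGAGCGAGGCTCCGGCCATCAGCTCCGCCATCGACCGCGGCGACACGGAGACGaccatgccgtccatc

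Lhx2-203 begins its coding sequence in the shared exon, at the start codon atg of the lower-case part (position 38353314), and codes for 365 residues, 41 fewer. RefSeq promoter windows (GRCm38.p6, 300 bases spanning a RefSeq start) were also searched. The Lhx2 window from 38339031 to 38339330 spans the Lhx2-203 start and held 34 CG dinucleotides. The other Lhx2 window, 38351058 to 38351357, held 29. It lies within the first exon of Lhx2-201, downstream of the annotated start of that transcript. Over the 12 windows of 7 members in that table, the median was 17, beside 7 over 32851 windows. The homeodomain core word TAATTA, searched on both strands, was in 3 of the 12 windows, 1 of Emx2 and 2 of Otx2, and in 5.29% of all windows.

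Pax6 had the most divided transcripts, 22 of 26 with reads. The leading one in both libraries was the processed, noncoding Pax6-210 at 5.11 and 4.63 TPM (20.8% and 23.4%). In replicate 2 its interval, 3.39 to 5.76 TPM, overlapped that of Pax6-207, 2.16 to 4.49 TPM. The deposited Pax6-207 value there, 4.51 TPM, lay just above its own upper bound. The 8 full-length coding transcripts together made 11.8 and 9.45 TPM, 47.8% and 47.7% of the gene. They differ by exon 5a, 42 bases (chr2:105684751-105684792, plus strand, mm10) inserted into the paired box, which is known to change the DNA sequence that the paired domain prefers. The junction is shown with exon 5a in capitals and without it, since Pax6-206 and Pax6-207, whose values are given next, differ only here.

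Pax6-201: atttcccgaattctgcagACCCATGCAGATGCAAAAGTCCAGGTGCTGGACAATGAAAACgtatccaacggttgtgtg
Pax6-202: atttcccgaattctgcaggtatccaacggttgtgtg

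With the exon, the coding sequence is 1308 bases long, and without it 1266. Full-length coding transcripts with exon 5a summed to 5.93 TPM in replicate 1 and 3.0 TPM in replicate 2. Those without it summed to 5.83 and 6.45 TPM. The form with exon 5a thus made 50.4% of full-length coding Pax6 in replicate 1 and 31.7% in replicate 2.

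Single transcripts differed far more. Pax6-206, with exon 5a, was at 3.57 and 0.34 TPM, and Pax6-207, identical except for that exon, at 0.14 and 4.51 TPM. Their sum was 3.71 and 4.85 TPM. Pax6-204, also without the exon, was at 3.28 and 0.04 TPM. Pax6-201, with it, was at 1.69 and 2.66 TPM. The intervals of Pax6-206, 1.28 to 3.94 and up to 1.41 TPM, overlapped, while those of Pax6-207 and Pax6-204 were apart. Transcripts that differ by 42 bases share most fragments, so the division between them is an estimate.

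**Figure D5:**
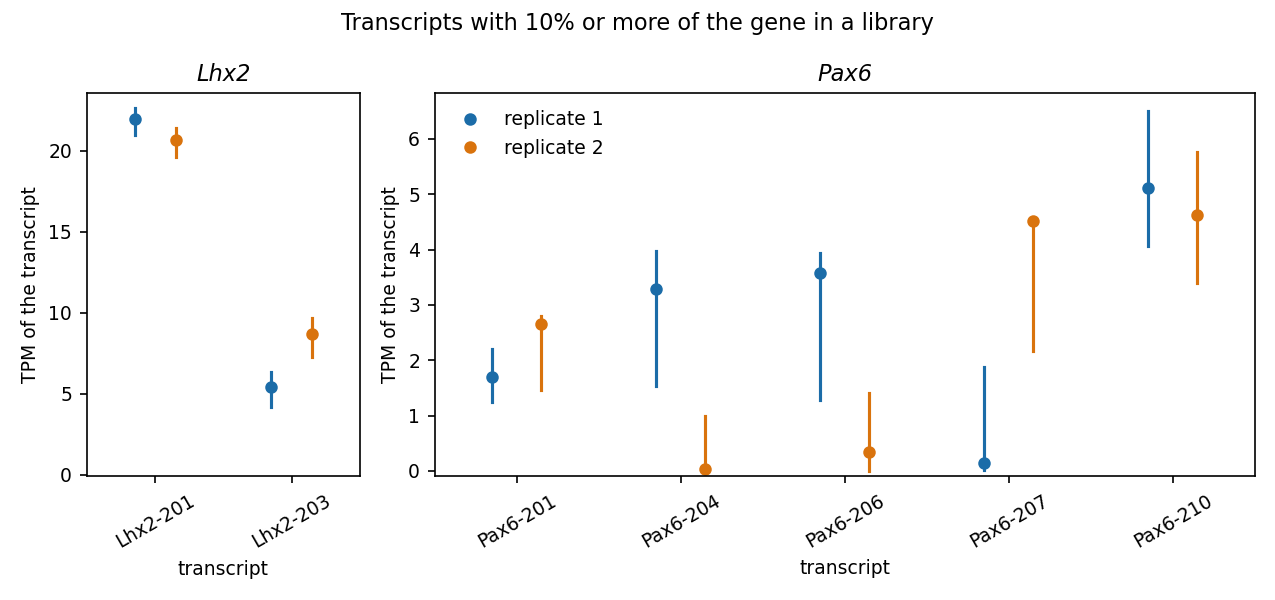
Deposited TPM of the Lhx2 and Pax6 transcripts with 10% or more of their gene in a library, with vertical lines for deposited interval bounds. Lhx2-203 and Pax6-207 are higher in replicate 2 and Pax6-204 lower, with intervals apart. Pax6-210 leads Pax6 in both, in replicate 2 with an interval that overlaps that of Pax6-207.

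The plot of transcripts by library shows Pax6-210 at a like level in both libraries and Pax6-204, Pax6-206 and Pax6-207 each near 0 in one of them. By first exon, Pax6 transcripts of the upstream starts (105668900 to 105668935) made 9.08 and 9.67 TPM, those of the middle starts (105671860 to 105679867) 9.75 and 6.03 TPM, and those further downstream 5.77 and 4.13 TPM. In deposited posterior mean TPM the upstream starts made 9.24 and 8.82, so their direction turned, while the middle starts (9.85 and 6.77) and the downstream starts (6.11 and 4.80) were again lower in replicate 2. These groups of starts were chosen after the values had been seen. The antisense neighbour Pax6os1, which overlaps the upstream first exons on the other strand, had 33 and 42 counts. The low members were spread thinly over transcripts, with reads on 5 of 8 for Otx2 and 4 of 7 for Lhx9, and Otx2os1, the noncoding neighbour of Otx2, had no count in either library.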

How the data were processed

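Polyadenylated RNA of frontal cortex was sequenced in 2 libraries of 1 group. Per the deposited text description, the authors quantified genes and transcripts on mm10 with annotation release M4. No aligner is named there, and the program that estimated the counts is not given in the sources used here. The deposited values were expected counts, TPM over all entries including spike-ins, FPKM, posterior mean counts and posterior mean TPM. The authors also deposited the percent of a gene's TPM per transcript and TPM interval bounds (a signal whose level the files do not state). Symbols and coordinates were looked up in GENCODE M21 by unversioned identifier, and promoters were taken from RefSeq. Printed coding sequences came from GENCODE M21 transcripts.

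Replicate ratios are log2 CPM (prior count 2) from rounded expected counts of annotated genes without spike-ins. They were scaled by TMM factors (1.02 and 0.982) of edgeR 4.0.16 in R 4.3.3. Annotated genes held 101771589 and 86854784 counts. Counting intervals are exact conditional binomial at 95%. They cover counting error only, because each side has 1 library. PCR copies were not removed by molecular identifiers, so even counting error may be understated. The ratio script was tested on simulated data. Genes were called past log2 0.5 in the scaled ratio with the unscaled deposited TPM intervals apart, among genes with 10 or more counts. Detected means 1 TPM or more in both libraries. No p-values were computed, since an exact sign-flip test over 2 libraries cannot go below 0.5, and SDs have 1 degree of freedom. Whether the replicates came from separate animals is not stated beyond the label of biological replicates.

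The 9 genes, the lists and the rules were chosen with earlier results of these data known. Named genes are the members, their paralogs, the leading 3 of each list, genes at 0 and genes that passed the call. Some genes that this rule names are not reported here but stay in the counts and medians. Transcripts named have 10% or more of a gene in a library. Gabra6, Atp23, Duox2, the homeobox pattern and the Pax6 transcript groups were chosen after values were seen. Alternatives used posterior means, FPKM, scaling by DESeq2 1.42.0, by library totals or by spike-ins, other priors, pseudocounts and thresholds, and each library alone. The symbol Tle5 found no match in GENCODE M21, so that gene was not analysed here.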

Additional observations from a re-analysis of the deposited data

How the results depend on the processing

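Of 50 recomputed main results, 44 stayed near their main value and 6 moved, all 6 of them paralog ratios, with none changing sign. Counts within 1.5 times the main one were taken as near, such as midbrain and isthmus factors detected, 3 at 1 TPM, 4 at 0.5 TPM and 2 at 2 TPM. Of the values of single genes and transcripts, 21 moved and 102 did not. Rescaling to nuclear protein-coding genes multiplied every level by 1.98 in replicate 1 and 2.08 in replicate 2, taking Lhx2 to 63.7 TPM. FPKM moved 6 levels, and posterior mean TPM moved 5, among them Otx2 from 0.23 to 0.415 TPM. The share of Otx1-201 moved from 88.0% to 85.0% with posterior means. Each level or share that moved differed from its main value by more than the SD of the 2 libraries. The label thus does not follow the size of the change. With posterior means, Emx1 moved at 13.2 to 13.1 TPM, while the share of Emx2-201 did not at 83.1% to 76.6%. Without division by length, the log2 ratio was 0.42 for Emx1 over Emx2, 4.05 for Otx1 over Otx2 and 6.72 for Lhx2 over Lhx9. With a pseudocount of 1 TPM, Otx1 over Otx2 was 1.20 and Lhx2 over Lhx9 was 4.77, and posterior mean TPM gave 2.17 for Otx1 over Otx2. In single libraries the ratios ran from 1.07 to 1.49 for Emx1 over Emx2, from 2.74 to 3.28 for Otx1 over Otx2 and from 7.02 to 7.92 for Lhx2 over Lhx9. With the genes sorted anew by either library alone, 7 neighbouring pairs were apart, against 5 over both. A pair then needs intervals apart in that library only. The order stayed the same in replicate 1, while Lhx9 and En2 changed places in replicate 2. The count of members at 1 TPM or more was 5 under posterior mean TPM, under FPKM at a threshold of 1, after rescaling to nuclear protein-coding genes and in each library alone. No member passed the call between replicates under another scaling, prior count or pseudocount. Depth limits Gbx2, En2, Otx2 and Lhx9, whose levels rest on 2 to 72 counts a library. No paired analysis was possible because the study has 1 group.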
